A study of Mus musculus with 6 samples.

Results

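The HES and HEY genes encode transcriptional regulators of the bHLH-Orange family, many of them repressors switched on by Notch signaling, and *Nrarp* and *Dtx1* are further target genes of the pathway. *Hes6* is an exception, since its expression is not known to be induced by Notch. The 9 genes *Hes1*, *Hes5*, *Hes6*, *Hes7*, *Hey1*, *Hey2*, *Heyl*, *Nrarp* and *Dtx1* were chosen by name. Of these 9, 8 had a row among the 18537 gene clusters of the deposited values. No row carried the symbol *Hes7*, whose expression is not analysed here.

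The genes were read out by poly(A)+ RNA-seq in luminal progenitors of the mouse mammary gland. The cells were sorted by FACS as lineage-negative, CD24-low, CD29-positive and CD61-positive. There were 3 libraries from *Robo1+/+* mice (replicates gh03, gh09 and gh15) and 3 from *Robo1−/−* mice (gh06, gh12 and gh18), and each library pooled 2 animals. The animals were adult and nulliparous, from crosses of heterozygous parents, and *Robo1−/−* animals were homozygous for the Robo1tm1Matl allele. The labels call them littermates, and the study's methods allow for littermates or animals matched in age. Pooling leaves the spread between single animals unmeasured. Between 9727191 and 17433868 reads per library were recovered from the normalized read counts, in which 1 read was worth between 0.784 (gh09) and 1.46 (gh18).

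When a Notch receptor binds a ligand on a neighbouring cell, its intracellular domain is cut free, enters the nucleus and joins the DNA-binding protein RBPJ and Mastermind at target genes. HES and HEY proteins, made from these targets, bind DNA as dimers and repress transcription, in part through Groucho/TLE co-repressors. In the mammary gland, Notch activity is known to favour luminal over basal fate.

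*Robo1*, the targeted gene (kgCluster9753; chromosome 16 from 72663394 to 73046340 of NCBI37/mm9), had normalized read counts of 289, 574 and 541 in the *Robo1+/+* libraries gh03, gh09 and gh15, against 130, 214 and 177 in gh06, gh12 and gh18, the *Robo1−/−* libraries. Every *Robo1−/−* library lay below every *Robo1+/+* library, although reads of the gene were present in all 6. Its log2 fold change, here always *Robo1−/−* against *Robo1+/+* on the scale log2(value + 1), was −1.39 (standard error, SE, 0.36, limma adjusted p = 0.858).

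As a sum, the genes of a luminal progenitor marker list were abundant in all libraries. All 14 genes of the list were tested, with *Krt8* the most abundant. The study uses KRT8 as a marker of luminal cells, so the sum alone does not tell progenitors from other luminal cells. The summed normalized read count of the list was 154373, 182829 and 170678 in *Robo1+/+* against 198196, 197903 and 94524 in *Robo1−/−* libraries, so gh18 was the lowest of the 6. The 12 basal and myoepithelial markers summed to between 922 (gh09) and 2621 (gh03), with *Oxtr* the most abundant. These sums overlapped between the genotypes.

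Summed over their list, markers of hormone-sensing mature luminal cells were abundant as well. Their 10 genes, led by *Prlr*, summed to 47292, 59843 and 50737 in *Robo1+/+* against 74207, 62200 and 64855 in *Robo1−/−* libraries. Each *Robo1−/−* sum was above each *Robo1+/+* sum, but not without *Prlr*, where the sums were 26126, 28818 and 30640 against 37488, 35332 and 27720. Of the 10 genes, 7 had positive and 3 negative log2 fold changes, and 0 passed an unadjusted limma p of 0.05 with a log2 fold change beyond 1. The largest were negative, with −2.94 for *Tnfsf11*, at 0.92 in gh12, and −2.60 for *Wnt4*, at 4.38 in gh18. *Pgr* was higher in every *Robo1−/−* library than in any *Robo1+/+* library, also after the GC correction. Its log2 fold change was 0.76, and 1.23 with the correction. *Csn3* of the luminal progenitor list was likewise higher in every *Robo1−/−* library, with 0.85, but overlapped after the correction, with 0.46. In the deposited values, 4.83% of all tested genes were higher in this way. In the study mature luminal cells are CD61-negative, so the CD61-positive gate selects against them. Whether any of them contributed to the results on these genes was not tested. In bulk RNA, fewer cells of a type and less RNA per cell cannot be told apart.

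Markers of cells outside the epithelium ranged from absent to clearly read. Of 12 endothelial genes, 11 had a row and 4 were tested. *Cdh5*, *Kdr*, *Tie1*, *Cldn5* and *Sox17* had at most 3 reads in each library and 0 in some of them, whereas *Pecam1* and *Flt1* had normalized read counts of 23.4 to 89.8 and 10.2 to 97.6. The endothelial sum was 2501, 2336 and 1495 in *Robo1+/+* against 1736, 1735 and 233 in *Robo1−/−* libraries, and came largely from *Vwf* and *Eng*. *Vwf*, the most abundant of the list, alone had 2167, 1437 and 570 against 1054, 357 and 140. The endothelial sums overlapped between the genotypes, with gh18 far below the rest. *Heyl* is also known from vessel walls, so a list for pericytes and vascular smooth muscle was read. Of its 8 genes, 7 had a row and 2 were tested. It summed to 370, 427 and 544 in *Robo1+/+* against 300, 402 and 394 in *Robo1−/−* libraries, most of it from *Mcam*. *Pdgfrb*, *Kcnj8* and *Des* had at most 3 reads in each library, and *Des* and *Cspg4* were at 0 in some of them. *Rgs5*, the second gene tested, had normalized read counts of 78.9, 28.2 and 64.7 in *Robo1+/+* against 34.5, 20.2 and 136 in *Robo1−/−* libraries. It was thus low in gh06, gh12 and gh09 and highest in gh18. Its log2 fold change was −0.19, and −0.97 without gh18. The part of vessel-wall cells in the values of *Heyl* was not tested.

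Of the remaining lists, 8 fibroblast genes, of which 6 were tested, summed to between 408 (gh12) and 1276 (gh06), with *Dcn* the most abundant. Of 8 leukocyte genes, 7 had a row and 3 were tested. They summed to 210, 209 and 269 in *Robo1+/+* against 148, 149 and 120 in *Robo1−/−* libraries, with *Cd68* the most abundant and *Ptprc* and *Cd79a* at 3 reads or fewer in every library. The leukocyte sums did not overlap between the genotypes, but they did once *Cd74* was left out, and so did the values of *Cd68*. *Cd74* of this list had a log2 fold change of −1.66 with an unadjusted limma p of 0.00725, past both thresholds used further on. With the GC correction it was −1.14, and the genotypes overlapped. Of 6 adipocyte genes, 3 had a row and 2 were tested, and *Lipe* was the most abundant. Their sum was 886, 989 and 1056 in *Robo1+/+* against 959, 806 and 298 in *Robo1−/−* libraries. The sorting protocol depletes CD45-positive and CD31-positive cells, that is leukocytes and endothelium, and the part of any that remained was not tested.

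The 3 HEY genes had the largest absolute log2 fold changes among the tested genes of the 8 with a row, in opposite directions. On average, *Hey1* and *Hey2* were higher in *Robo1−/−* luminal progenitors, and *Heyl* was lower. The genotypes did not overlap for *Hey2* and *Heyl*, but they did for *Hey1*. The limma adjusted p was 0.858 for each of the 3. The remaining genes had an unadjusted p over 0.05 from limma, or had too few reads to test.

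*Hey1* (kgCluster15638; chromosome 3 from 8663362 to 8667039 of NCBI37/mm9, minus strand) encodes a bHLH repressor and is a direct Notch target in many tissues. It had normalized read counts of 743, 621 and 395 in the *Robo1+/+* libraries gh03, gh09 and gh15, against 1587, 1666 and 708 in gh06, gh12 and gh18, the *Robo1−/−* libraries. The libraries gh06 and gh12 stood above all *Robo1+/+* libraries, whereas gh18 fell between gh03 and gh09. The mean was 586 ± 177 (SD, n = 3) in *Robo1+/+* compared with 1320.4 ± 532 (SD, n = 3) in *Robo1−/−* luminal progenitors.

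The log2 fold change of *Hey1* was 1.12 (95% confidence interval 0.15 to 2.08; SE 0.41, limma adjusted p = 0.858). All 3 *Robo1−/−* libraries were above the *Robo1+/+* mean of the log2 values, by 1.48, 1.55 and 0.32 in gh06, gh12 and gh18. Because the values overlapped, the two-sided exact permutation test gave p = 0.2. The unadjusted limma p was 0.0289. It rose above 0.05 when gh09, gh15, gh06 or gh12 was left out. *Hey1* then had a log2 fold change of 1.18 without gh09, 0.86 without gh15, 0.94 without gh06 and 0.90 without gh12, with an unadjusted p between 0.0553 and 0.101.

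*Hey2* (kgCluster1623; chromosome 10 from 30552165 to 30562607, minus strand), a paralog best known for its role in the heart and vessels, had far fewer reads. It had normalized read counts of 17.8, 28.2 and 24.4 in *Robo1+/+* against 56.4, 47.6 and 54.0 in *Robo1−/−* libraries. These rest on 14, 36 and 26 reads in *Robo1+/+* and on 49, 52 and 37 reads in *Robo1−/−* libraries. The lowest *Robo1−/−* library, gh12, was above the highest *Robo1+/+* library, gh09. The mean was 23.5 ± 5.27 (SD, n = 3) in *Robo1+/+*, compared with 52.7 ± 4.53 (SD, n = 3) in *Robo1−/−* luminal progenitors.

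For *Hey2*, the log2 fold change was 1.15 (95% confidence interval 0.33 to 1.98; SE 0.35, limma adjusted p = 0.858). The *Robo1−/−* libraries lay 1.25, 1.01 and 1.19 above the *Robo1+/+* mean on the log2 scale, the most even shift of the 3 HEY genes. The two-sided exact permutation test gave p = 0.1, as low as 3 against 3 libraries can reach. Without gh03 the log2 fold change was 0.97, just short of 1.

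*Heyl* (kgCluster17920; chromosome 4 from 122910799 to 122927118, plus strand), the third HEY gene and a known target of NOTCH3, lay on the other side. It had normalized read counts of 363, 212 and 320 in *Robo1+/+* against 99.0, 48.6 and 175 in *Robo1−/−* libraries. All *Robo1−/−* libraries were below all *Robo1+/+* libraries, with gh12 the lowest and gh18 closest to the *Robo1+/+* range. The mean was 298 ± 77.8 (SD, n = 3) in *Robo1+/+*, compared with 108 ± 63.7 (SD, n = 3) in *Robo1−/−* luminal progenitors.

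*Heyl* had a log2 fold change of −1.61 (95% confidence interval −2.79 to −0.43; SE 0.50, limma adjusted p = 0.858). On the log2 scale gh06, gh12 and gh18 differed from the *Robo1+/+* mean by −1.54, −2.56 and −0.73. The two-sided exact permutation test gave p = 0.1. Without gh03 the log2 fold change was −1.45, with an unadjusted limma p of 0.0535.

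**Figure D1:**
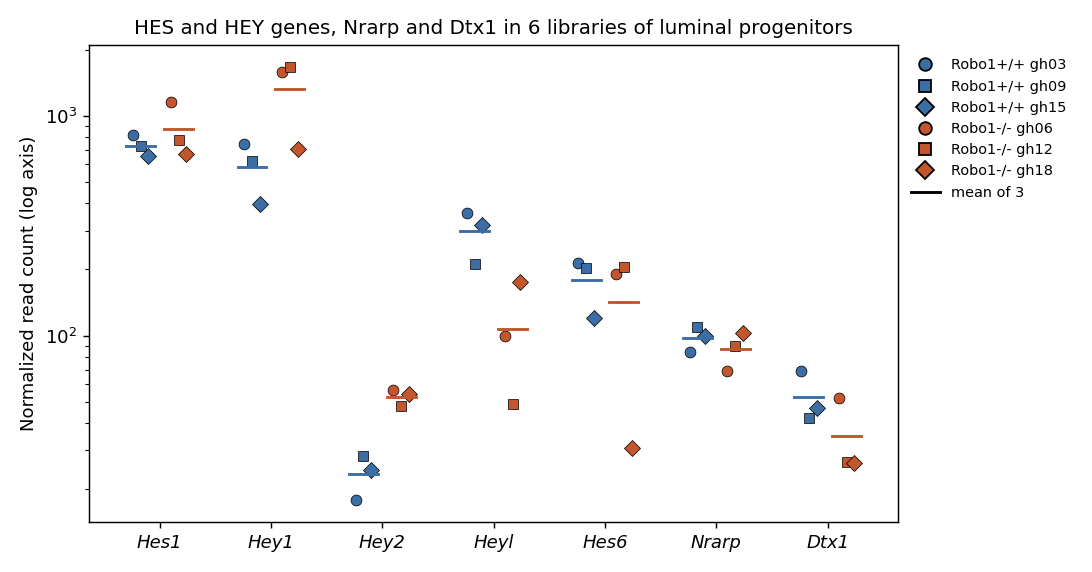
Normalized read counts (log axis) of 7 HES, HEY and related genes in each library of luminal progenitors, with *Robo1+/+* in blue and *Robo1−/−* in orange; symbols mark the libraries and lines the means of 3. On average, *Hey1* and *Hey2* were higher and *Heyl* lower in *Robo1−/−* libraries, with *Hey1* of gh18 inside the *Robo1+/+* range. *Hes6* was lowest in gh18, at 30.6.

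Counted over all genes, these differences were few. By limma, 0 of 13692 tested genes (0%) had an adjusted p under 0.05, while 231 had an unadjusted p under 0.05. DESeq2 called 1 gene at an adjusted p under 0.05, none of the genes studied here, and edgeR and limma-voom called 0. An unadjusted p under 0.05 with a log2 fold change over 1 was reached by 40 genes (0.292%), and with a log2 fold change under −1 by 75 genes (0.548%). Of the 7 HES, HEY and related genes tested, 2 (*Hey1* and *Hey2*) were among the former and 1 (*Heyl*) among the latter. With the GC correction, or without gh03, 1 of the 7 was higher and 0 lower by this rule, and without gh09, gh15, gh06 or gh12 1 was higher. Among the 12535 genes with a GC value, 34 were higher and 72 lower before the GC correction and 35 and 23 after it. Without gh06, 65 genes were higher and 566 lower. All *Robo1−/−* values lay above all *Robo1+/+* values in 661 genes (4.83%), with *Hey2* the 1 case among the 7, and below them in 627 genes (4.58%), with *Heyl* the 1 case. The median log2 fold change of the 7 genes was −0.17, and that of all tested genes 0.00.

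The contrast between the paralogs was also read within each library, where the scaling between libraries largely cancels out. The log2 ratio of *Hey1* to *Heyl* was 1.03, 1.55 and 0.30 in *Robo1+/+* against 3.99, 5.07 and 2.01 in *Robo1−/−* libraries. Each *Robo1−/−* ratio was above each *Robo1+/+* ratio. The difference of the genotype means was 2.73, and between 2.04 and 3.57 when each library was left out. The log2 ratio of *Hey2* to *Heyl* was −4.27, −2.86 and −3.66 in *Robo1+/+* against −0.80, −0.03 and −1.68 in *Robo1−/−* libraries. This ratio could not overlap, since *Hey2* alone was higher and *Heyl* alone lower without overlap. Here the means differed by 2.76, and by 2.36 to 3.18 when each library was left out. For both ratios the difference of means restates the log2 fold changes of the single genes. The pairs were chosen with results known, so the ratios are a description only. By contrast, the log2 ratio of *Hey1* to *Hey2* had a mean of 4.56 ± 0.68 (SD, n = 3) in *Robo1+/+*, compared with 4.53 ± 0.74 (SD, n = 3) in *Robo1−/−* libraries. The genotype means of this last ratio thus differed by less than the spread between libraries.

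Levels of different genes were compared per kilobase of exon. On this scale *Hey1* made up 81.2%, 84.3% and 71.3% of the summed level of the 3 HEY genes in *Robo1+/+* libraries, and 94.6%, 96.4% and 85.3% in *Robo1−/−* libraries. *Heyl* made up 17.1%, 12.4% and 24.9% against 2.54%, 1.21% and 9.09%. The share of *Hey1* was thus higher and that of *Heyl* lower in every *Robo1−/−* library than in any *Robo1+/+* library. *Hey2* made up between 1.68% and 5.62%, with overlap between the genotypes. The summed level of the 3 genes was 415, 334 and 251 normalized reads per kilobase in *Robo1+/+* against 762, 785 and 377 in *Robo1−/−* libraries, where gh18 lay within the *Robo1+/+* range.

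GC content bears on these comparisons, because the values of gh18 fell with it. For each gene, the log2 deviation of gh18 from the average of the remaining 5 was set beside the median deviation of tested genes within 1 percentage point of its GC content. *Hey1*, with 50.2% GC, deviated by −0.29 where 1359 such genes had a median of 0.03. *Hey2*, with 45.9% GC, deviated by 0.74 against a median of 0.53. *Heyl*, with 55.2% GC, deviated by 0.09 against a median of −1.05. So *Heyl* in gh18 was high for its GC content.

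A correction subtracted from each library a smooth curve of log2 deviation on GC content. After it, the log2 fold change was 1.11 for *Hey1*, 0.96 for *Hey2* and −1.23 for *Heyl*, with unadjusted limma p-values of 0.0219, 0.0252 and 0.117 and an adjusted p of 1.00 for each. *Hey2* kept its separation of the genotypes, but *Heyl* did not, since gh18 rose to a log2 value of 8.35 within a *Robo1+/+* range of 7.46 to 8.37. The log2 ratio of *Hey1* to *Heyl* in gh18 was then 1.12 and that of *Hey2* to *Heyl* −3.00, both inside the *Robo1+/+* range. In gh06 and gh12 the corrected ratios remained above all *Robo1+/+* libraries, at 4.21 and 5.17 for *Hey1* to *Heyl* and −0.47 and 0.12 for *Hey2* to *Heyl*.

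The direction of the 3 HEY genes did not rest on gh18. Without gh18, the log2 fold change was 1.52 for *Hey1*, 1.13 for *Hey2* and −2.05 for *Heyl*. With gh18 left out and the GC correction applied, a combination chosen after seeing the data, it was 1.50, 1.10 and −2.03. In all 17 alternatives tried for each gene, *Hey1* and *Hey2* were higher and *Heyl* lower in *Robo1−/−* luminal progenitors. These alternatives reuse the same libraries and are not independent checks. Among them, the other gene filters cannot change a log2 fold change.

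**Figure D2:**
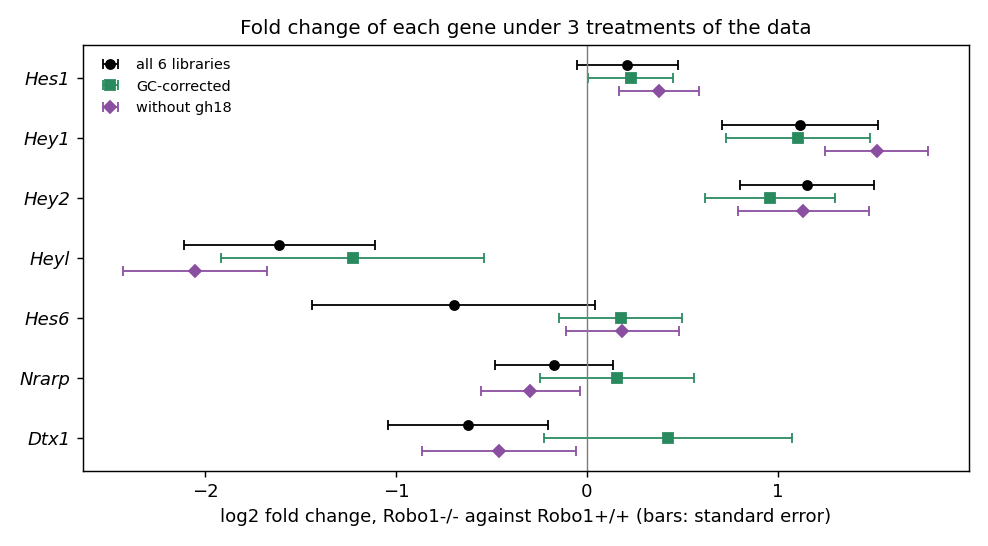
Log2 fold change of *Robo1−/−* against *Robo1+/+* luminal progenitors for 7 HES, HEY and related genes with all 6 libraries (black), after GC correction (green) and without gh18 (purple); bars are standard errors. *Hey1* and *Hey2* lie above 0 and *Heyl* below 0 in each setting shown, while *Hes6*, *Nrarp* and *Dtx1* change sign in at least 1.

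*Hes1* (kgCluster9462; chromosome 16 from 30064470 to 30067882, plus strand) encodes the most widely expressed HES repressor. It had normalized read counts of 816, 727 and 654 in *Robo1+/+* against 1156, 780 and 670 in *Robo1−/−* libraries. Only gh06 stood above the *Robo1+/+* range, and gh12 and gh18 fell inside it. The mean was 732 ± 81.0 (SD, n = 3) against 868 ± 255 (SD, n = 3), so the means lay closer together than the SD among *Robo1−/−* libraries. This gave a log2 fold change of 0.21 (95% confidence interval −0.41 to 0.84; SE 0.27, limma adjusted p = 0.858). Without gh06 it was −0.013. With 50.7% GC, *Hes1* was hardly touched by the GC correction, which gave 0.23.

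*Hes1* had the highest mean level in *Robo1+/+* and *Hey1* in *Robo1−/−* libraries. Per kilobase of exon, *Robo1+/+* libraries had a mean level of 359 for *Hes1* and 266 for *Hey1*, and their ranges overlapped. In *Robo1−/−* libraries the means were 426 for *Hes1* and 599 for *Hey1*, again with overlapping ranges. In gh18 *Hey1* was below *Hes1*, at 321 against 329, as in the *Robo1+/+* libraries. Within each library, the log2 ratio of the normalized read counts of *Hey1* to *Hes1*, not divided by length, was −0.13, −0.23 and −0.73 in *Robo1+/+* against 0.46, 1.09 and 0.08 in *Robo1−/−*. Every *Robo1−/−* ratio was higher than every *Robo1+/+* ratio, also after the GC correction, where gh18 had 0.01 and the highest *Robo1+/+* library −0.12. Each of these genes overlapped between the genotypes on its own, and their ratio was not among those planned. Of single tested genes, 4.83% were higher in every *Robo1−/−* library. The share of gene pairs whose ratio does so was not computed.

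*Hes6* (kgCluster623; chromosome 1 from 93308060 to 93310615, minus strand) encodes an atypical family member known to antagonize HES1. Its normalized read counts were 214, 203 and 120 in *Robo1+/+* against 190, 205 and 30.6 in *Robo1−/−* libraries. The low value of gh18 alone set the *Robo1−/−* libraries apart. The log2 fold change of −0.70 (SE 0.74, limma adjusted p = 0.858) became 0.19 without gh18 and 0.18 with the GC correction. With 60.3% GC, *Hes6* deviated in gh18 by −2.54, and 482 genes of like GC content had a median deviation of −2.30.

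*Nrarp* (kgCluster13249; chromosome 2 from 25036278 to 25038850, plus strand) encodes a feedback inhibitor that acts on the intracellular domain of Notch. Its normalized read counts were 84.0, 109 and 99.4 in *Robo1+/+* against 69.0, 89.8 and 102 in *Robo1−/−* libraries. The genotypes overlapped, and *Nrarp* had the narrowest spread of the *Robo1+/+* libraries relative to its mean after *Hes1*, with 97.4 ± 12.6 (SD, n = 3). The log2 fold change was −0.17 (95% confidence interval −0.90 to 0.55; SE 0.31, limma adjusted p = 0.887), and 0.16 with the GC correction.

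*Dtx1* (kgCluster19654; chromosome 5 from 121130211 to 121161936, minus strand) encodes Deltex, a cytoplasmic ubiquitin ligase that binds Notch. Its normalized read counts were 68.7, 42.3 and 46.9 in *Robo1+/+* against 51.8, 26.6 and 26.3 in *Robo1−/−* libraries. The libraries gh12 and gh18 lay below the *Robo1+/+* range and gh06 inside it. On the log2 scale the fold change was −0.62 (95% confidence interval −1.61 to 0.37; SE 0.42, limma adjusted p = 0.858). Its transcript has the highest GC content of the 8 genes, 62.5%, and the GC correction turned the value to 0.43 by lifting gh18 to the top of the 6 libraries. Without gh18 and with no correction it was −0.46.

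*Hes5* (kgCluster18486; chromosome 4 from 154335032 to 154336480, plus strand), a target best known from neural progenitors, had 1 read in gh06 and 0 reads in the other 5 libraries. A count of 0 allows up to 3 reads, which correspond to normalized read counts between 2.35 (gh09) and 4.38 (gh18). It was not tested, and a difference was not detectable at this depth.

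Ordered by mean level per kilobase of exon, *Robo1+/+* libraries had *Hes1* (359), *Hey1* (266), *Hes6* (99.0), *Heyl* (58.3), *Nrarp* (37.9), *Dtx1* (11.3), *Hey2* (9.21) and *Hes5* (0). Ranges of neighbours overlapped, except between *Hey1* and *Hes6*, between *Nrarp* and *Dtx1*, and between *Hey2* and *Hes5*. In *Robo1−/−* libraries the order was *Hey1* (599), *Hes1* (426), *Hes6* (78.5), *Nrarp* (33.8), *Heyl* (21.0), *Hey2* (20.7), *Dtx1* (7.48) and *Hes5* (0.281). *Heyl* and *Hey2*, far apart in *Robo1+/+* libraries, thus had overlapping levels in *Robo1−/−* libraries, where *Hey2* was also above *Dtx1* in every library.

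For each HEY gene, the 3 tested genes most like it over the 6 libraries were those with the smallest root mean square difference of log2 values centred on their own mean. For *Hey1* these were a transcript without a gene name (kgCluster20386, 0.30), *Klhdc1* (0.31) and *Foxi1* (0.35), where the median over 13691 genes was 0.85. For *Hey2* they were *Sybu* (0.16) and 2 transcripts without a gene name, kgCluster13614 (0.17) and kgCluster28297 (0.18), against a median of 0.72. For *Heyl* they were *Ncs1* (0.27), *Zbtb7c* (0.29) and *Cachd1* (0.37), against a median of 1.09. *Ncs1*, with normalized read counts of 240, 98.0 and 215 in *Robo1+/+* against 84.0, 33.9 and 133 in *Robo1−/−* libraries, shared with *Heyl* the low values of gh09 and gh12 within their genotypes. The likeness describes these 6 libraries alone.

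The other genes of the pathway are counted by the same rule, which 0.292% of all tested genes met as higher and 0.548% as lower. At these shares, 0 or 1 call in a list of this size is no result about the list. Of 4 receptor genes 3 were tested, and 0 passed an unadjusted p of 0.05 with a log2 fold change beyond 1 by limma. The largest log2 fold changes were −0.98 for *Notch3* and −0.61 for *Notch1*, which were −0.16 and −0.03 with the GC correction. Of 5 ligand genes 4 were tested and 0 passed, the largest being *Jag2* with −0.73 and *Dll4* with −0.56 (0.23 and −0.11 with the GC correction). *Dll1* had 0.27 with overlap between the genotypes. With the correction it had 0.62, the largest of the ligands, and was higher in every *Robo1−/−* library. Without gh18, *Notch1* turned to 0.08 and *Dll4* to 0.07. *Notch3* had normalized read counts of 3517, 3757 and 3804 in *Robo1+/+* against 3556, 3191 and 575 in *Robo1−/−* libraries. Only gh18 was far below the others. A relation between *Notch3* and *Heyl* was not tested.

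Among the genes that modify, cleave and transmit the signal, 0 met the rule. Of 9 modifiers of ligands and receptors 8 were tested, with *Lfng* (−1.34) and *Rfng* (−0.996) the largest. *Lfng*, a glycosyltransferase of NOTCH receptors, was lower in every *Robo1−/−* library than in any *Robo1+/+* library, also after the GC correction, which gave −0.59. *Poglut1* of the same list (0.40) and *Cir1* of the RBPJ complex list (0.48) were higher in every *Robo1−/−* library, but not after the correction. Only after the correction was *Maml3* of the RBPJ complex list higher (0.24) and the cytoplasmic regulator *Dtx2* lower (−0.29) in every *Robo1−/−* library. After it, the genotypes did not overlap in 818 of the 12535 genes with a GC value. Of all tested genes, 4.83% separated the genotypes upward and 4.58% downward in the deposited values. Of 9 receptor cleavage genes 8 were tested, led by *Psen2* (−0.68) and *Psenen* (−0.49). All 12 genes of the RBPJ complex and its co-repressors were tested, among them *Kat2b* (0.49), and all 6 Groucho/TLE partners, led by *Aes* (−1.07) and *Tle2* (−0.92). All 8 cytoplasmic regulators were tested, led by *Numbl* (−1.39) and *Dtx2* (−1.04). The negative log2 fold changes named here were each closer to 0 after the GC correction, as with *Aes* (−0.23) and *Numbl* (−0.29). For 3 of them gh18 set the direction: without it *Psen2* turned to 0.40, *Psenen* to 0.022 and *Aes* to 0.015.

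Of 5 further genes of the bHLH-Orange family 3 had a row and 2 were tested, *Bhlhe41* and *Bhlhe40*, both with 0.32 and neither passing. Of 9 other genes known as Notch targets, *Notch3* again among them, 8 were tested, and 1 passed, in the lower direction. It was *Nfkb2*, with normalized read counts of 3123, 3358 and 4080 in *Robo1+/+* against 2682, 1714 and 823 in *Robo1−/−* libraries. *Nfkb2* had a log2 fold change of −1.17 (SE 0.42, limma adjusted p = 0.858). The GC correction moved it to −0.38, and leaving out gh18 to −0.71. *Id3* had the largest value of that list, −1.31, which turned to 0.41 without gh18, where its normalized read count was 11.7 against 239 to 502 elsewhere. The median log2 fold change of these other targets was −0.20, against −0.17 for the 7 HES, HEY and related genes. It was −0.61 for receptors, −0.29 for ligands, −0.18 for modifiers, −0.03 for cleavage genes, 0.09 for the RBPJ complex, −0.43 for TLE partners and 0.10 for cytoplasmic regulators. With the GC correction, the medians of these 7 lists lay between −0.03 and 0.23, that of the other targets was −0.01 and that of the HES, HEY and related genes 0.23.

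Promoter sequences from RefSeq (GRCm38.p6), 250 bases before to 50 bases after a gene start, were matched by symbol for 6 of the 9 genes, *Hes5*, *Hes6*, *Hes7*, *Hey2*, *Nrarp* and *Dtx1*. *Hes1*, *Hey1* and *Heyl* had no entry. The letters GTGGGAA, a common form of the RBPJ motif, were searched on both strands. They occur in 6.38% of all 32851 promoter windows of 300 bases. *Hey2* and *Hes5* each held 2 matches, at positions −207 and −4 in *Hey2* and −226 and −83 in *Hes5*, counted from the gene start to the first base of the match. *Hes7* held 1, and *Hes6*, *Nrarp* and *Dtx1* held 0. The pair with 2 matches is shown because their transcripts differed so much in level: *Hey2* was read in every library, and *Hes5* had 1 read in all. The pieces run from 250 bases before the start to 10 bases after it, with matches in capitals (GTGGGAA, or TTCCCAC for the opposite strand). The *Hey2* piece is chr10:30842774-30843033 on the minus strand, and the *Hes5* piece is chr4:154960673-154960932 on the plus strand.
Hey2: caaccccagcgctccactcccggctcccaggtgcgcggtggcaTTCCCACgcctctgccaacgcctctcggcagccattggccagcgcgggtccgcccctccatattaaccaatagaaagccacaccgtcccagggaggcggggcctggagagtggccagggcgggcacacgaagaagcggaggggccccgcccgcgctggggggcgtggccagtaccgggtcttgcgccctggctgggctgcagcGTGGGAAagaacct
Hes5: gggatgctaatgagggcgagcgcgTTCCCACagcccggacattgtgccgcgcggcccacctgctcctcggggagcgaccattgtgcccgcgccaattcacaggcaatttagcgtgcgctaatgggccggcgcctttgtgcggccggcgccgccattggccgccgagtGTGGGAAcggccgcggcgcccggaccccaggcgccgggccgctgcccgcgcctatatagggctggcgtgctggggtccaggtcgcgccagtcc
A match describes the sequence and does not show that RBPJ binds there.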

How the data were processed

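Poly(A)+ RNA of sorted luminal progenitors was sequenced in 6 libraries, with genotypes as labelled. The deposited signal values are read counts per gene cluster that the authors mapped to mm9 with TopHat and divided by a size factor per library. The counting tool, its use of strand and its rule for reads with several positions are not given in the sources used here. Dividing by the value of 1 read gave whole reads for 100% of values, within 0.1 of a read. Reads are not independent molecules, so limits from a count of 0 cover counting error only.

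Values were tested as log2(value + 1) with limma (version 3.58.1, R 4.3.3), with empirical Bayes trend and two-sided Benjamini-Hochberg adjustment over all 13692 genes that passed edgeR's filterByExpr (version 4.0.16). P-values measure the spread between these libraries, and no source pairs libraries by litter or day. Alternatives were edgeR, DESeq2 (version 1.42.0) and limma-voom on recovered reads, other scalings, filters and pseudocounts, a GC correction (lowess, span 0.3) and each library left out. GC content was available for 12535 tested genes (91.5%). Positions, exon lengths and GC content come from GENCODE release M1 on NCBI build 37. The scripts were tested on simulated data. The genes studied and all lists were chosen with earlier results of these data known. Genes named are those studied, *Robo1*, the 2 of each Notch list with the largest absolute log2 fold change and any past the thresholds, the most abundant and defining markers, and the 3 genes most like each HEY gene. Of the genes this rule takes, 1 is not reported here. *Cd74*, *Eng*, *Pecam1*, *Flt1*, *Rgs5*, *Tnfsf11*, *Wnt4*, *Pgr*, *Csn3*, *Dll1*, *Poglut1*, *Cir1* and *Maml3* were named after their values were seen.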

Additional observations from a re-analysis of the deposited data

How the results depend on the processing

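No paired analysis was possible because the labels give the libraries of both genotypes no shared replicate numbers. *Hey1*, *Hey2* and *Heyl* kept their direction in all 17 alternatives each, which reuse the same libraries. They were past both thresholds (unadjusted p under 0.05, absolute log2 fold change over 1) in 13, 15 and 15 of them. With each library left out, log2 fold changes ranged from 0.86 to 1.52 for *Hey1*, from 0.97 to 1.29 for *Hey2* and from −2.05 to −1.14 for *Heyl*, and from −0.013 to 0.38 for *Hes1* and −1.17 to 0.19 for *Hes6*. The GC correction gave 0.96 for *Hey2* and −1.23 for *Heyl*, neither past both thresholds. It turned *Hes6* to 0.18, *Nrarp* to 0.16 and *Dtx1* to 0.43. With gh18 also left out, the values were 0.29 for *Hes6*, −0.28 for *Nrarp* and −0.31 for *Dtx1*. Leaving out gh18 turned *Hes6* to 0.19, and leaving out gh06 turned *Hes1* to −0.013.

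Among the HES, HEY and related genes past both thresholds, the GC correction left 1 higher and 0 lower, and 1 whose genotypes did not overlap. With each library left out, 1 to 2 were higher and 0 to 1 lower. Over all genes, DESeq2 called 1 gene at an adjusted p under 0.05, and 62 higher and 116 lower genes past both thresholds. Testing every gene with 1 read or more gave 112 and 192, and the GC correction 35 and 23, with 818 genes whose genotypes did not overlap. The correction covers the 12535 genes with a GC value, among which these counts were 34, 72 and 1195 before it. With each library left out, the counts past both thresholds ranged from 20 to 78 higher and from 42 to 566 lower. The higher counts moved past 1.5 times without gh06, gh12 or gh18, and the lower counts without gh15, gh06 or gh18. The cause of these differences was not tested.

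The number of libraries limits what can be told: 3 against 3 cannot give an exact p below 0.1. *Hey2* rests on 14 to 52 reads per library. The GC correction is steep in gh18, so corrected values of GC-rich genes there lean on its curve. The adjusted p of *Hey1*, *Hey2* and *Heyl* lay between 0.549 and 1.00 over the alternatives.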
